A study of Mus musculus with 12 samples.

Results

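The 10 genes described here were the Runx transcription factor genes Runx1, Runx2 and Runx3, their shared partner Cbfb, the coreceptor genes Cd4, Cd8a and Cd8b1, and the regulators Patz1, Gata3 and Myb. They were found by symbol, 1 row each, among 23234 features in a gene expression table of mouse thymocytes. Messenger RNA was measured by RNA-seq in 12 libraries of sorted CD4+CD8+ double-positive (DP) thymocytes with high CD24 and low T cell receptor β, the stage before positive selection, all from C57BL/6 thymus. Of these, 5 came from wild-type newborn mice, 3 from newborn Bcl11b m/m mice and 4 from Bcl11b fl/fl:Cd4-Cre mice, whose age the labels do not give. The study's methods state an age of some weeks for mice used in flow cytometry, without naming these libraries. The m allele carries a frameshift and gives a Bcl11b protein without its last zinc finger, and homozygotes die as neonates. The fl allele is deleted by Cre under Cd4 control, which acts from the DP stage, so these cells had developed with Bcl11b until then. Genotype and age cannot be told apart in comparisons with the Cd4-Cre group if those mice were older. Genotypes were taken from the sample titles and the design statement, because the free-text descriptions of the wild-type and Cd4-Cre libraries name other genotypes.

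Runx proteins bind DNA as partners of the protein encoded by Cbfb and can repress or activate. In the thymus they silence Cd4 in immature and cytotoxic cells, Runx3 is a main factor of the cytotoxic CD8 lineage, and Runx1 is the principal family member before selection. Gata3 and Myb favour the CD4 helper lineage, Patz1 (MAZR) restrains Cd8 genes and the helper factor gene Zbtb7b (Thpok), and Bcl11b, a zinc finger protein, takes part in the same control. The question of the comparisons was whether altered Bcl11b changes the levels of these genes before selection.

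Values were fragments per kilobase of transcript scaled to mapped fragments (FPKM), so levels of different genes can be compared per length. Genes were compared between groups with limma on log2(FPKM + 1), over the 10780 features whose 12-library mean reached 1 FPKM, and were called at a Benjamini-Hochberg adjusted p under 0.05. The log2 scale with 1 added understates changes of low genes. Nothing in the labels says that libraries of a group came from separate animals, so p-values measure the spread between these libraries. In bulk samples, fewer cells that express a gene and less RNA per cell cannot be told apart.

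DP markers were high in every library. The summed level of 10 such markers, which include the coreceptor genes, ran from 5084 to 6788 FPKM in wild-type, 3777 to 4298 FPKM in Bcl11b m/m and 3551 to 5592 FPKM in Bcl11b fl/fl:Cd4-Cre. Of these 10, Cd4, Cd8b1, Rag2, Arpp21 and Cd24a fell in Bcl11b m/m, where 7.39% of all tested genes were called lower. Cd24a alone fell in Bcl11b fl/fl:Cd4-Cre, where 9.86% of all tested genes were called lower. Cd24a, which encodes a surface marker of the sort, went from 182 FPKM in wild-type to 79.8 and 80.2 FPKM in the mutants (log2 fold change -1.15 in both, limma adjusted p = 0.00422 and 0.00517). Its part, and that of the other DP markers, in the values of Cd4 and Cd8b1 was not tested. Markers of other stages moved with the mutant groups. The summed level of 7 post-selection markers was 92 to 167 FPKM in wild-type, 344 to 476 FPKM in Bcl11b m/m and 134 to 340 FPKM in Bcl11b fl/fl:Cd4-Cre, and that of 6 double-negative markers was 9.67 to 13.9, 82.2 to 215 and 21.0 to 83.6 FPKM. Cd69, a post-selection marker, went the other way, from 23.5 ± 8.07 FPKM (SD, n = 5) in wild-type to 14.7 ± 1.61 FPKM (n = 3) in Bcl11b m/m and 8.75 ± 5.56 FPKM (n = 4) in Bcl11b fl/fl:Cd4-Cre, where it fell (-1.46 on the log2 scale, limma adjusted p = 0.0356). Several marker genes passed the filter only through the groups where they are high, such as Il7r, S1pr1, Hes1 and Kit, so calls are not counted over the lists of other cells. Summed levels were 0.0744 to 0.655, 110 to 151 and 4.35 to 70.8 FPKM for 6 markers of gamma-delta and innate T cells, with Il17a at 0 in every library. In Bcl11b m/m this sum rested on 5830411N06Rik and Cd163l1, with means of 71.6 and 52.0 FPKM. Sox13, Blk and Zbtb16 stood at 0.241, 0.334 and 0.0529 FPKM there, beside 0.198, 0.0921 and 0.0062 FPKM in wild-type. Sums were 2.07 to 6.27, 11.9 to 19.4 and 2.06 to 24.3 FPKM for 8 markers of NK and cytotoxic cells. Summed levels of 6 myeloid markers were 6.95 to 14.1, 18.4 to 66.8 and 1.57 to 6.52 FPKM. Among them Itgam alone had a lower mean in Bcl11b m/m (0.653 FPKM) than in wild-type (2.59 FPKM). Summed levels of 4 erythroid markers were 2.36 to 33.9, 10.6 to 29.7 and 0.829 to 5.02 FPKM. For 5 B cell markers they were 12.9 to 21.1, 7.38 to 35.7 and 11.3 to 27.5 FPKM, and for 5 thymic stroma markers 2.28 to 4.37, 0.549 to 2.19 and 0.499 to 1.32 FPKM. Of the NK and cytotoxic markers, Gzmb was at 0 in every wild-type and Bcl11b m/m library. Ncr1 was at 0 in every wild-type and Cd4-Cre library, and neither gene exceeded 0.192 FPKM anywhere. Klrb1c, Ccl5 and Prf1 had means of 0.155, 0.789 and 2.45 FPKM in wild-type and 4.22, 5.56 and 5.12 FPKM in Bcl11b m/m. In Bcl11b fl/fl:Cd4-Cre their means were 7.34, 0.299 and 0.946 FPKM. The part of such cells in the results below was not tested. Bcl11b itself stood at 218 ± 72.5 FPKM (SD, n = 5) in wild-type, 449 ± 28.9 FPKM (n = 3) in Bcl11b m/m and 130 ± 11.1 FPKM (n = 4) in Bcl11b fl/fl:Cd4-Cre. Its change was a log2 fold change of 1.10 (limma adjusted p = 0.0279) in Bcl11b m/m and -0.68 (adjusted p = 0.0828) in Bcl11b fl/fl:Cd4-Cre, and a value over the whole gene does not show whether the floxed part was lost. The call in Bcl11b m/m was lost with no filter (adjusted p = 0.0551) and with a replicate block (0.1955). It was also lost without wild-type replicate 4 (0.0536) or 5 (0.0559) or Bcl11b m/m replicate 1 (0.0757), 2 (0.0892) or 3 (0.0928). The difference in Bcl11b fl/fl:Cd4-Cre passed the threshold without wild-type replicate 1 (adjusted p = 0.0169), in a single fit of all 3 groups (0.0489) and with library weights (0.00292).

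Runx3 and Runx1 each have 2 start sites with a promoter entry in RefSeq, and Runx3 in CD8 lineage cells is known to use the distal one. The gene-level FPKM does not separate the promoters. The distal Runx3 promoter, the 250 bases before the start site at chr4:135120395-135120644 on the plus strand of GRCm38.p6, is shown because Runx3 changed most among the members. Capitals mark the Runx motif ACCACA, searched on both strands, which occurs as a pair with 2 bases between the copies.

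Runx3 distal promoter: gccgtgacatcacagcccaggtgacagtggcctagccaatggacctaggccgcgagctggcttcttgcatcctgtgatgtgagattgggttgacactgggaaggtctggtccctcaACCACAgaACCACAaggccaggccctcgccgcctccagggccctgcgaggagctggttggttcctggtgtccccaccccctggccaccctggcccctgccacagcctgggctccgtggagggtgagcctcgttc

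The same pair stands in a promoter window of Runx1 and of Runx2. It is shown here in stretches of 26 bases, read 5′ to 3′ along each gene, to compare the family members. In Runx3 the first copy begins 134 bases before the start site. In Runx1 and Runx2 the pairs lie at chr16:92826027-92826052 and chr17:44814585-44814610, both on the minus strand. Unlike in Runx3, both lie after the start site. With the start site as base 1, the copies begin at bases 29 and 37 in Runx1. The second copy begins at base 32 in Runx2, which holds a further single motif 80 bases before its start site.
Runx3 window: ccctcaACCACAgaACCACAaggcca
Runx1 window: taaacaACCACAgaACCACAagttgg
Runx2 window: caaacaACCACAgaACCACAagtgcg
The RefSeq promoters searched were windows of 300 bases, 250 before and 50 after the start site. Among 32851 of them, 16.8% held the single motif on either strand and 7 held such a pair, these 3 among them. RefSeq had 11 promoters for 8 members, and no other promoter of a member held the letters ACCACA on either strand, the second promoters of Runx3 and Runx1 included. Cd4 and Cd8b1 had no entry. A match is a description of the letters only.

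Runx3, on chromosome 4 at 134676567 to 134733905 (plus strand, NCBIM37), was the one member called in both mutants. In the wild-type libraries its level was 1.97, 5.30, 6.40, 2.83 and 4.22 FPKM. It was 18.3, 16.3 and 14.2 FPKM in Bcl11b m/m and 16.5, 11.5, 34.7 and 24.4 FPKM in Bcl11b fl/fl:Cd4-Cre. Every mutant library was higher than every wild-type library, and the ranges of the mutants overlapped. The mean rose 3.92-fold in Bcl11b m/m, with a log2 fold change of 1.82 (SE 0.29, limma adjusted p = 0.00437). It rose 5.25-fold in Bcl11b fl/fl:Cd4-Cre, with a log2 fold change of 2.11 (SE 0.34, adjusted p = 0.00581). The direct difference of Bcl11b m/m from Bcl11b fl/fl:Cd4-Cre was -0.29 on the log2 scale (95% interval -1.08 to 0.49, adjusted p = 0.601), an interval that holds differences in both directions. The spread from lowest to highest library was 3.03-fold in Bcl11b fl/fl:Cd4-Cre, 3.24-fold in wild-type and 1.28-fold in Bcl11b m/m. Without the highest Cd4-Cre library, replicate 3, the log2 fold change of that group was 1.86. Estimated from the deposited values, about 44 to 126 fragments lay behind Runx3 in the wild-type libraries if reads fell on its longest transcript.

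Runx1 (chromosome 16, 92601712 to 92826311, minus strand) differed between the mutants. Its level was 28.8, 35.2, 38.1, 24.4 and 36.6 FPKM in wild-type, 40.6, 43.6 and 47.9 FPKM in Bcl11b m/m and 30.3, 28.3, 25.9 and 32.1 FPKM in Bcl11b fl/fl:Cd4-Cre. All 3 Bcl11b m/m libraries lay over all others, while the Cd4-Cre and wild-type ranges overlapped. The direct difference was a log2 fold change of 0.58 (SE 0.11, limma adjusted p = 0.0193). This call was lost in quantile-normalized values (adjusted p = 0.0508), with short RNA features removed (0.0600) and without replicate 2 (0.0661) or replicate 3 (0.0812) of Bcl11b m/m or replicate 1 of Bcl11b fl/fl:Cd4-Cre (0.0515). A replicate block ended the call too (0.145). Against wild-type, the log2 fold change was 0.44 (SE 0.16, adjusted p = 0.103) in Bcl11b m/m and -0.14 (SE 0.15, adjusted p = 0.545) in Bcl11b fl/fl:Cd4-Cre, and neither passed the threshold, but the first did with library weights (0.36, adjusted p = 0.0291). The sign of the second turned to 0.0056 with short RNA features removed.

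Runx2 (chromosome 17, 44632936 to 44951746, minus strand), the family member best known from bone, was below the filter. Its levels ran from 0.221 to 0.517 FPKM in wild-type, 0.134 to 0.235 FPKM in Bcl11b m/m and 0.0626 to 0.26 FPKM in Bcl11b fl/fl:Cd4-Cre, with at most about 15, 6 and 44 fragments behind a value. These ranges overlapped. When the filter was dropped, limma adjusted p was 0.170 and 0.105 against wild-type, and neither passed the threshold. The exact permutation test of this gene alone, two-sided and unadjusted, gave p = 0.0714 and p = 0.0317. A further Runx2 entry of the annotation overlaps the gene, so its reads may be split.

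Cbfb (chromosome 8, 107694574 to 107741886, plus strand) was measured at 58.6, 70.9, 71.7, 76.9 and 63.6 FPKM in wild-type. The level was 58.8, 45.03 and 55.5 FPKM in Bcl11b m/m and 39.2, 50.01, 52.3 and 33.3 FPKM in Bcl11b fl/fl:Cd4-Cre. All 4 Cd4-Cre libraries lay below every wild-type library, whereas 1 of the 3 Bcl11b m/m libraries lay inside the wild-type range. Cbfb fell in Bcl11b fl/fl:Cd4-Cre, with a log2 fold change of -0.65 (SE 0.15, limma adjusted p = 0.0208). The call was lost with a replicate block (adjusted p = 0.0663), without wild-type replicate 2 (0.0511) and without Cd4-Cre replicate 1 (0.0684) or 4 (0.0586). The log2 fold change in Bcl11b m/m was -0.36 (SE 0.13, adjusted p = 0.0995), and it passed the threshold after median-ratio scaling (0.0178), after quantile normalization (0.0410) and without wild-type replicate 1 (0.0442). The direct difference was 0.29 on the log2 scale (95% interval -0.13 to 0.71, adjusted p = 0.328).

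**Figure D1:**
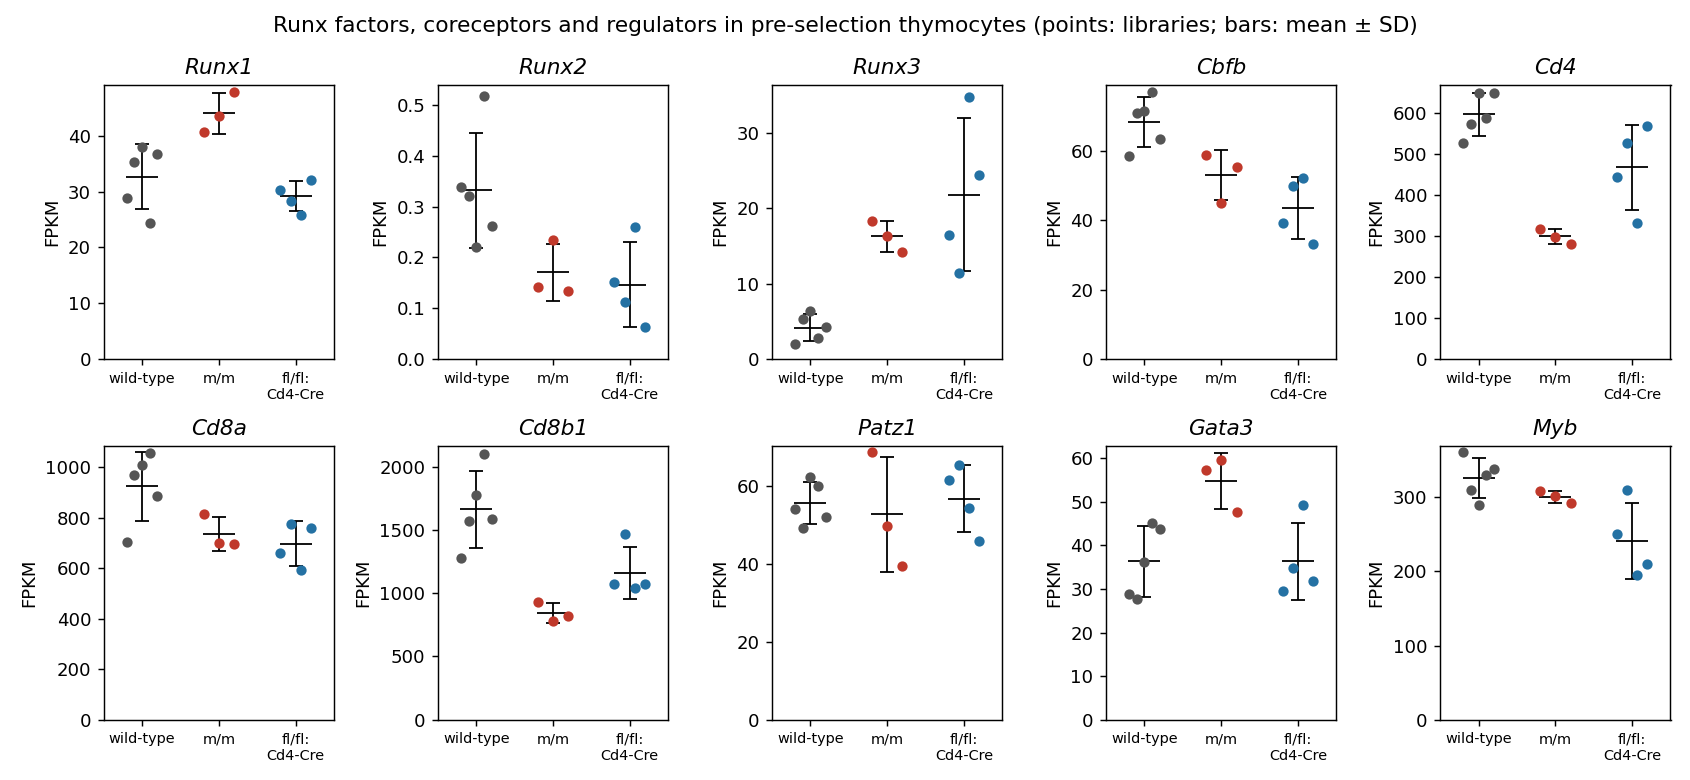
FPKM of the 10 genes (y axes from 0) in wild-type, Bcl11b m/m and Bcl11b fl/fl:Cd4-Cre thymocytes; points are libraries, and bars show the mean ± SD. Runx3 in every mutant library lies above the wild-type libraries, which end at 6.40 FPKM, and Cd4 in Bcl11b m/m lies below all others, at 281 to 318 FPKM.

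Within the Runx family the balance moved towards Runx3. Its share of the summed Runx FPKM was 6.35%, 12.98%, 14.3%, 10.2% and 10.3% in wild-type. It was 31.0%, 27.1% and 22.9% in Bcl11b m/m, and 35.1%, 28.8%, 57.0% and 43.1% in Bcl11b fl/fl:Cd4-Cre. No mutant library overlapped the wild-type range, and in Cd4-Cre replicate 3 Runx3 exceeded Runx1. Summed Runx levels were 37.1 ± 7.28 FPKM (SD, n = 5) in wild-type, 60.5 ± 1.66 FPKM (n = 3) in Bcl11b m/m and 51.0 ± 9.47 FPKM (n = 4) in Bcl11b fl/fl:Cd4-Cre. Cbfb stood at 1.55 to 2.78 times the summed Runx level in wild-type, at 0.749 to 0.997 times in Bcl11b m/m and at 0.589 to 1.25 times in Bcl11b fl/fl:Cd4-Cre. These ratios of transcripts were described without a test.

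Cd4, which encodes the coreceptor for MHC class II (chromosome 6, 124814710 to 124838239, minus strand), was lower in Bcl11b m/m. Its level was 527, 574, 651, 589 and 649 FPKM in wild-type, 318, 298 and 281 FPKM in Bcl11b m/m and 445, 527, 331 and 569 FPKM in Bcl11b fl/fl:Cd4-Cre. The Bcl11b m/m libraries lay below all others and spanned 1.13-fold. Cd4 fell in Bcl11b m/m with a log2 fold change of -0.99 (SE 0.14, limma adjusted p = 0.00215), and no single library decided that call. A replicate block ended it (adjusted p = 0.162). Against wild-type the Cd4-Cre group had a log2 fold change of -0.38 (SE 0.18, adjusted p = 0.186). The direct difference was -0.62 (95% interval -1.08 to -0.15, adjusted p = 0.0932) and passed the threshold without Cd4-Cre replicate 3 (-0.77, adjusted p = 0.0266).

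Cd8b1 and Cd8a, neighbours on chromosome 6 (71272830 to 71287471 and 71323421 to 71329165, plus strand), encode the β and α chains of the coreceptor for MHC class I. Cd8b1 was measured at 1280, 1567, 1773, 2099 and 1589 FPKM in wild-type, 933, 781 and 820 FPKM in Bcl11b m/m and 1069, 1466, 1039 and 1072 FPKM in Bcl11b fl/fl:Cd4-Cre. The Bcl11b m/m libraries were the lowest, and 3 of 4 Cd4-Cre libraries lay below the wild-type range. Cd8b1 fell in Bcl11b m/m with a log2 fold change of -0.96 (SE 0.23, limma adjusted p = 0.0250). The direction held in every alternative, but the call was lost when no filter was applied (adjusted p = 0.0659) and without wild-type replicate 2 (0.0636), 3 (0.0615) or 5 (0.0601) or Bcl11b m/m replicate 1 (0.0617), 2 (0.120) or 3 (0.0996). A replicate block ended the call too (0.387). The Cd4-Cre group had a log2 fold change of -0.51 (SE 0.20, adjusted p = 0.120), and it was called without wild-type replicate 1 (-0.60, adjusted p = 0.0378), after quantile normalization (0.0405) and with library weights (0.0228).

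Cd8a was 704, 967, 1006, 1054 and 886 FPKM in wild-type, 812, 698 and 697 FPKM in Bcl11b m/m and 661, 776, 591 and 760 FPKM in Bcl11b fl/fl:Cd4-Cre. The lowest wild-type library lay among the mutant ones. The log2 fold change was -0.32 (SE 0.20, limma adjusted p = 0.329) in Bcl11b m/m and -0.40 (SE 0.17, adjusted p = 0.152) in Bcl11b fl/fl:Cd4-Cre, where it was called without wild-type replicate 1 (-0.49, adjusted p = 0.0315). The direct difference was 0.08 (95% interval -0.30 to 0.46) and turned to -0.03 after median-ratio scaling.

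The coreceptor genes kept other proportions in Bcl11b m/m than in the other groups. The ratio of Cd8b1 to Cd8a was 1.62 to 1.99 in wild-type, 1.12 to 1.18 in Bcl11b m/m and 1.41 to 1.89 in Bcl11b fl/fl:Cd4-Cre. Cd4 to Cd8a stood at 0.559 to 0.749 in wild-type, 0.392 to 0.427 in Bcl11b m/m and 0.561 to 0.748 in Bcl11b fl/fl:Cd4-Cre. In both ratios the Bcl11b m/m libraries lay below all others, and the other groups overlapped. For Cd4 to Cd8b1 the 3 groups overlapped, with means of 0.367 ± 0.0529 (SD, n = 5), 0.355 ± 0.0227 (n = 3) and 0.406 ± 0.0918 (n = 4). A ratio within a library does not depend on a scaling by 1 factor per library, but quantile normalization can change it.

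**Figure D2:**
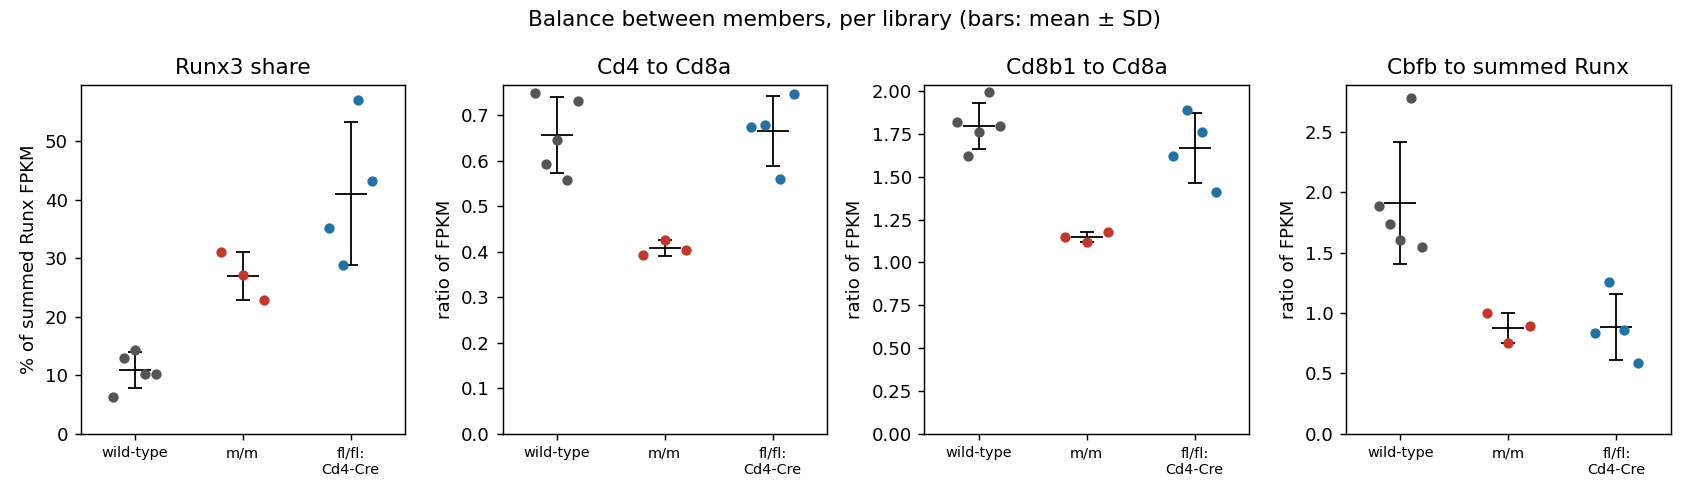
Runx3 share of the summed Runx FPKM (in %), and ratios of FPKM for Cd4 to Cd8a, Cd8b1 to Cd8a and Cbfb to the summed Runx level, in the 3 groups; points are libraries, and bars show the mean ± SD. The Runx3 share is above the wild-type maximum of 14.3% in all mutant libraries, whereas both coreceptor ratios are apart in Bcl11b m/m only.

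Among the regulators, none of Patz1, Gata3 and Myb passed the threshold in any comparison. Patz1 (chromosome 11, 3188877 to 3209086, plus strand) was 54.1, 49.3, 62.3, 59.9 and 52.1 FPKM in wild-type, 68.8, 49.8 and 39.6 FPKM in Bcl11b m/m and 61.4, 65.3, 54.3 and 45.9 FPKM in Bcl11b fl/fl:Cd4-Cre. The Bcl11b m/m libraries reached past both ends of the wild-type range. Its log2 fold change was -0.10 (95% interval -0.50 to 0.29) in Bcl11b m/m and 0.02 (-0.27 to 0.31) in Bcl11b fl/fl:Cd4-Cre, with limma adjusted p of 0.738 and 0.930.

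Gata3 (chromosome 2, 9778705 to 9811661, minus strand) was 28.9, 27.7, 36.1, 45.1 and 43.8 FPKM in wild-type, 57.3, 59.6 and 47.6 FPKM in Bcl11b m/m and 29.5, 34.8, 49.2 and 31.8 FPKM in Bcl11b fl/fl:Cd4-Cre. The Bcl11b m/m libraries lay over all wild-type libraries. The log2 fold change was 0.60 (SE 0.19, limma adjusted p = 0.0627), and it passed the threshold after median-ratio scaling (adjusted p = 0.0239), quantile normalization (0.0150) and removal of short RNA features (0.00847), and without wild-type replicate 4 (0.0415). For Bcl11b fl/fl:Cd4-Cre the mean was 36.3 ± 8.86 FPKM (SD, n = 4), beside 36.3 ± 8.12 FPKM (n = 5) in wild-type, with a 95% interval of the log2 difference of -0.44 to 0.44. The direct difference was 0.60 (SE 0.18, adjusted p = 0.0799) and was called without Cd4-Cre replicate 3 (0.75, adjusted p = 0.0173).

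Myb (chromosome 10, 20844736 to 20880790, minus strand) was 361, 310, 290, 330 and 338 FPKM in wild-type, 309, 301 and 292 FPKM in Bcl11b m/m and 250, 309, 195 and 210 FPKM in Bcl11b fl/fl:Cd4-Cre. The Bcl11b m/m libraries lay within the wild-type range, and 3 of 4 Cd4-Cre libraries lay below it. The log2 fold change in Bcl11b fl/fl:Cd4-Cre was -0.45 (SE 0.16, limma adjusted p = 0.0825), called in a single fit of all 3 groups (0.0459) and without Cd4-Cre replicate 2 (-0.58, adjusted p = 0.0295). For Bcl11b m/m it was -0.11 (95% interval -0.39 to 0.17), and quantile normalization turned it to 0.07.

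Of the 9 members tested, 3 were called in Bcl11b m/m against wild-type, where 17.3% of all tested genes were called. Runx3 was higher, among 9.92% of all genes called higher, and Cd4 and Cd8b1 were lower, among 7.39% called lower. The Cd4-Cre group had 2 of the 9 called, against 14.5% of all genes. Runx3 was higher there, among 4.65% of all genes, and Cbfb lower, among 9.86%. In the direct comparison 1 was called, Runx1, against 10.2% of all genes, 7.63% higher and 2.6% lower in Bcl11b m/m. Both comparisons with wild-type share the 5 wild-type libraries. By the two-sided exact permutation test on single genes, unadjusted for the number of members, Runx1, Runx3, Cd4, Cd8b1 and Gata3 reached the smallest p that 5 against 3 libraries allow (0.0357). For the Cd4-Cre group, Runx3 and Cbfb reached the smallest for 5 against 4 (0.0159). The share of all genes that reach these smallest values was not computed. By limma, 3266 of the 10780 tested genes had an unadjusted p under 0.05 in Bcl11b m/m and 3296 in Bcl11b fl/fl:Cd4-Cre. Such separation is thus not read as particular to the members. The direct comparison of 3 against 4 libraries cannot go below 0.0571.

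**Figure D3:**
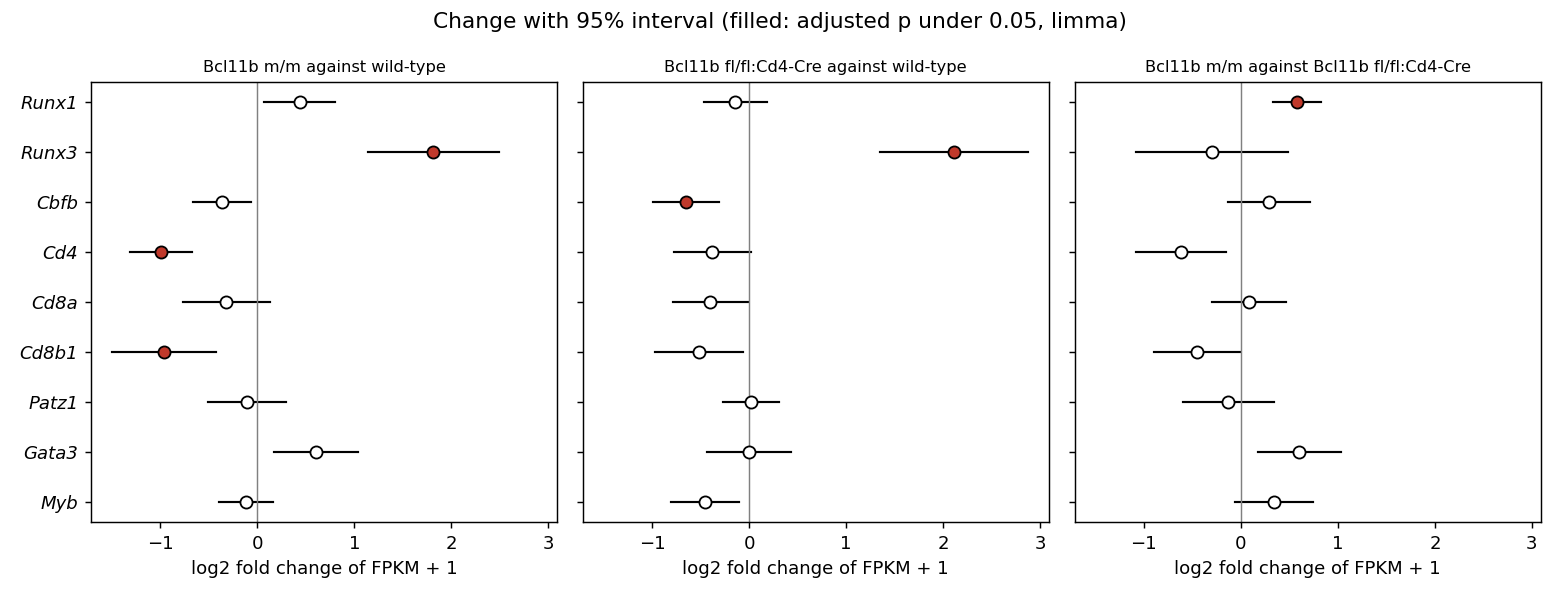
log2 fold change of FPKM + 1 (x axis) of the 9 tested members in the 3 comparisons, with 95% intervals; filled points passed a limma adjusted p of 0.05. Runx3 stands at 1.82 and 2.11 against wild-type, Cd4 and Cd8b1 near -1 in Bcl11b m/m, and Runx1 at 0.58 between the mutants.

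The order of the levels was the same in the 3 groups for Cd8b1, Cd8a, Runx1, Runx3 and Runx2, and differed among Cd4, Myb, Cbfb, Patz1 and Gata3. In wild-type the means fell from Cd8b1 (1661 FPKM) through Cd8a (923 FPKM), Cd4 (598 FPKM), Myb (326 FPKM), Cbfb (68.4 FPKM), Patz1 (55.6 FPKM), Gata3 (36.3 FPKM), Runx1 (32.6 FPKM) and Runx3 (4.15 FPKM) to Runx2 (0.332 FPKM). Here the ranges of Cbfb and Patz1, and of Gata3 and Runx1, overlapped, and the other neighbours were apart. In Bcl11b m/m, Cd4 (299 FPKM) came to the level of Myb (301 FPKM), and the ranges of Cd8b1 and Cd8a overlapped. The ranges of Gata3, Cbfb, Patz1 and Runx1 ran into each other in that order. In Bcl11b fl/fl:Cd4-Cre, the means of Patz1 and Cbfb changed places, Runx3 (21.8 FPKM) overlapped Runx1 (29.1 FPKM), and the neighbours from Patz1 through Cbfb and Gata3 to Runx1 overlapped too.

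Cd4-Cre replicate 3 stood at an end of its group for several members. It was the highest of the 4 for Runx3 (34.7 FPKM), Gata3 (49.2 FPKM), Cbfb (52.3 FPKM) and Runx2 (0.26 FPKM). It was the lowest for Runx1 (25.9 FPKM), Cd4 (331 FPKM), Cd8a (591 FPKM), Cd8b1 (1039 FPKM) and Myb (195 FPKM). In the same library the recombinase gene Rag1, a DP marker, was 438 FPKM, against 975 to 1297 FPKM in the other Cd4-Cre libraries. Of the 7 post-selection markers 6 were highest in this library, as Runx3 was, among them Klf2 (34.8 FPKM, against 5.92 to 10.8 FPKM in the others) and Itgb7 (160, against 51.1 to 95.7 FPKM), and Cd69 was not. Of the 8 markers of NK and cytotoxic cells 3 were highest in it, with Klrb1c at 21.8 FPKM against 0.299 to 5.14 FPKM, while Prf1 was lowest (0.584 FPKM) and Ncr1 was at 0 in all 4 libraries. Of the 6 myeloid markers 2 were highest in it, and of the 6 gamma-delta and innate markers 0. Their part in the result was not tested. Without this library Runx3 and Cbfb were still called against wild-type, and Runx3 had a log2 fold change of 1.86. Cd4-Cre replicate 1 was highest for 5 of the 6 gamma-delta and innate markers, 5 of the 5 B cell markers and 4 of the 6 myeloid markers. It was highest for 0 of the 7 post-selection markers. Without replicate 1 the calls of Cbfb against wild-type and of Runx1 between the mutants were lost, and the part of these markers was not tested.

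Genes whose proteins work with Runx factors were described as a list of 18, of which 15 passed the filter. Against wild-type, 3 rose and 2 fell in Bcl11b m/m (17.3% of all tested genes were called), and in Bcl11b fl/fl:Cd4-Cre 2 rose and 2 fell, Cbfb among them (14.5% of all). The median log2 fold change of the list was -0.06 and 0.09, beside -0.02 and -0.09 over all tested genes. Tle2 and Tle3 encode Groucho-family corepressors that bind the end of Runx proteins. Tle2 rose from 9.38 ± 3.10 FPKM (SD, n = 5) to 24.7 ± 5.35 FPKM (n = 3) in Bcl11b m/m (log2 fold change 1.33, limma adjusted p = 0.00685) and 44.3 ± 19.5 FPKM (n = 4) in Bcl11b fl/fl:Cd4-Cre (2.06, adjusted p = 0.00453). Tle3 rose by 0.74 (adjusted p = 0.0110) and 0.84 (0.0319) on the log2 scale. Tle1 fell in Bcl11b m/m (-1.01, adjusted p = 0.00993) and was lower there than in Bcl11b fl/fl:Cd4-Cre (-1.24, adjusted p = 0.0492). The histone methyltransferase gene Suv39h1 fell by 0.66 (adjusted p = 0.00252) in Bcl11b m/m and by 0.63 (0.0213) in Bcl11b fl/fl:Cd4-Cre. Hipk2, a kinase gene, rose in Bcl11b m/m (1.21, adjusted p = 0.0256) and was higher there than in Bcl11b fl/fl:Cd4-Cre (0.80, adjusted p = 0.0159).

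All 18 genes of a list of other factors of coreceptor and lineage control were tested. Of these, 4 rose and 2 fell in Bcl11b m/m (17.3% of all tested genes were called), and 2 rose and 4 fell in Bcl11b fl/fl:Cd4-Cre (14.5% of all). Zbtb7b and Hes1, with wild-type means of 0.0618 and 0.115 FPKM, passed the filter only through the mutant libraries, so nothing is read from these counts. Zbtb7b (Thpok), the helper lineage factor, had means of 46.0 FPKM in Bcl11b m/m and 30.7 FPKM in Bcl11b fl/fl:Cd4-Cre. The Notch target Hes1 had means of 13.4 and 6.69 FPKM. The maintenance DNA methyltransferase gene Dnmt1 fell in both mutants, by 0.55 (limma adjusted p = 0.0186) and 0.73 (0.0200) on the log2 scale. In Bcl11b m/m Tcf12, which encodes an E protein, rose by 0.85 (0.0259) and Ikzf1 by 0.47 (0.0482), while Ikzf3, another Ikaros-family gene, fell by 1.98 (0.00350). In Bcl11b fl/fl:Cd4-Cre the chromatin remodelling genes Smarca4 and Smarce1 fell by 0.84 (0.0223) and 0.50 (0.0402), and the E protein gene Tcf3 by 0.48 (0.0309). Between the mutants, Tcf12 (0.82, adjusted p = 0.0111) and Lef1 (0.67, 0.0161) were higher and Ikzf3 (-1.45, 0.0317) lower in Bcl11b m/m.

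Of 12 genes known to be under Runx control, 6 passed the filter. Zbtb7b and Il7r (wild-type mean 0.0475 FPKM) passed only through the mutant libraries, so no count or median over the 6 is given. Il7r, the interleukin-7 receptor gene, had means of 17.1 FPKM in Bcl11b m/m and 4.01 FPKM in Bcl11b fl/fl:Cd4-Cre. Levels of Zbtb7b, which is in this list too, are given above. Prf1, which encodes perforin of cytotoxic cells, was 2.45 ± 0.918 FPKM (SD, n = 5) in wild-type, 5.12 ± 0.792 FPKM (n = 3) in Bcl11b m/m and 0.946 ± 0.256 FPKM (n = 4) in Bcl11b fl/fl:Cd4-Cre. Prf1 rose in Bcl11b m/m (log2 fold change 0.86, limma adjusted p = 0.0264) and fell in Bcl11b fl/fl:Cd4-Cre (-0.80, 0.0257). The direct difference was 1.65 (adjusted p = 0.00232). The recombinase gene Rag2 fell in Bcl11b m/m (-0.87, adjusted p = 0.00997). Il7r and Prf1 are also in the lists of post-selection and of NK and cytotoxic markers.

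**Figure D4:**
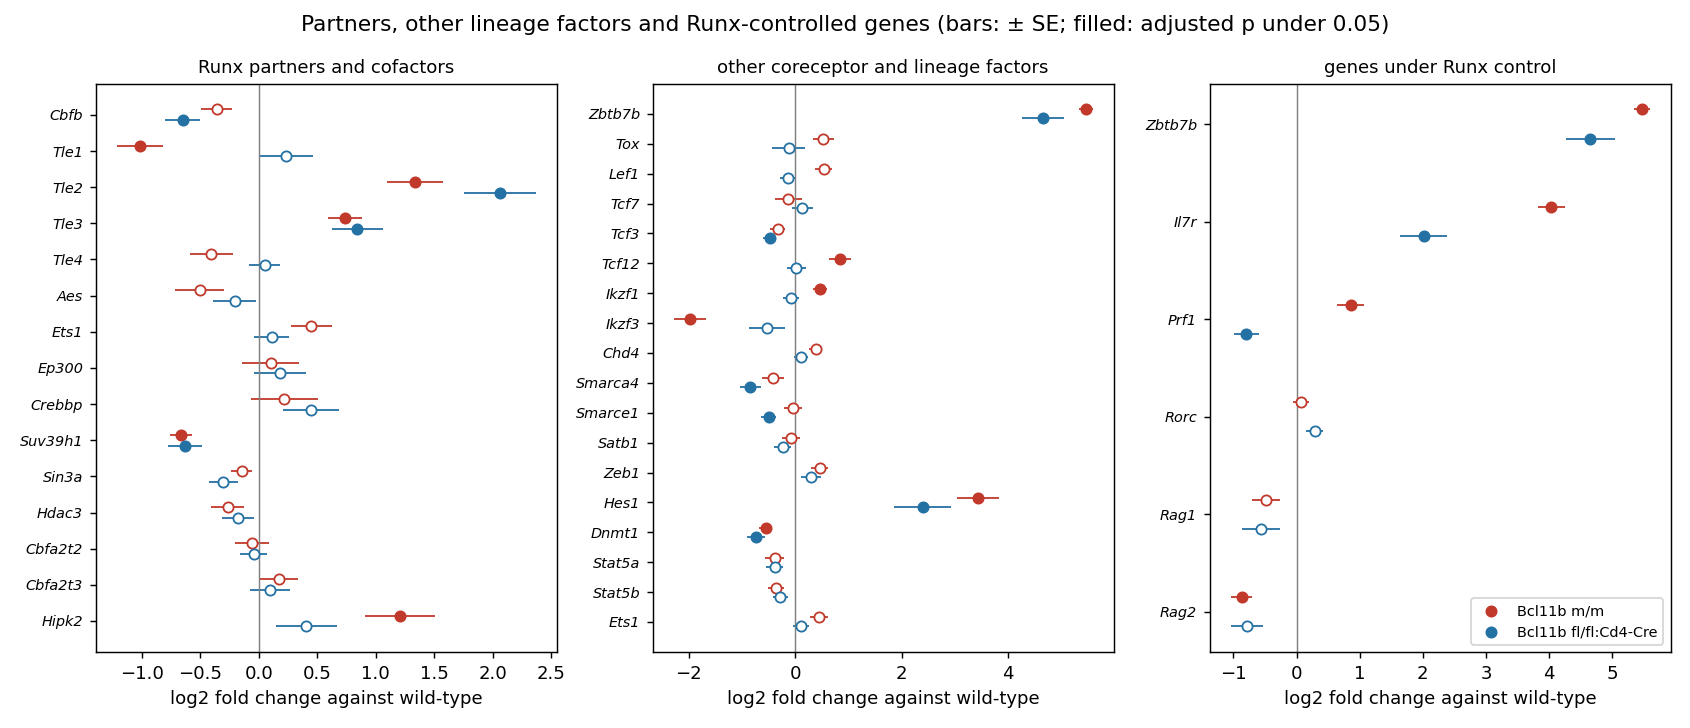
log2 fold change of FPKM + 1 against wild-type (x axis) for the tested genes of the 3 lists, in Bcl11b m/m and Bcl11b fl/fl:Cd4-Cre; bars are ± SE and filled points passed a limma adjusted p of 0.05. Tle2 and Tle3 lie to the right in both mutants, and Prf1 lies on opposite sides, at 0.86 and -0.80. Zbtb7b, Hes1 and Il7r passed the filter only through the mutant libraries, so nothing is read from their points.

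Genes with the pattern most like a member called against wild-type were taken by Pearson's r of log2(FPKM + 1) over the 12 libraries, as a description, since the libraries fall into the 3 groups. For Runx3 they were Mgrn1 (r = 0.9753), Klhdc2 (0.974) and Tyk2 (0.971), with Klhdc2 at means of 2.65, 17.0 and 18.6 FPKM in wild-type, Bcl11b m/m and Bcl11b fl/fl:Cd4-Cre. For Cd4 they were Ets2 (0.983), 2210010C17Rik (0.967) and Ppp1r3b (0.965). For Cd8b1 they were Fkbp1a (0.985), Dhrs4 (0.9748) and Ap3s1 (0.973), and for Cbfb they were Anp32a (0.964), Ywhaz (0.960) and Ptma (0.952). Ets2 followed Cd4 from 267 FPKM in wild-type to 83.0 FPKM in Bcl11b m/m and 181 FPKM in Bcl11b fl/fl:Cd4-Cre.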

How the data were processed

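Reads of 12 libraries had been mapped by the authors to the mouse genome (mm9, the build NCBIM37) with TopHat2 2.8.0, and expression was estimated with Cufflinks 2.1.1, versions as in the submitters' processing notes. The deposited values are FPKM per gene, with no scaling between libraries stated. Library chemistry is given differently in the labels and in the study's methods, so strand use is uncertain. Depth was estimated from the step between low FPKM values of genes with 1 transcript, at 4000000 to 6800000 fragments in wild-type, 2700000 to 4200000 in Bcl11b m/m and 10700000 to 45000000 in Bcl11b fl/fl:Cd4-Cre. Short RNA features held 7.02 to 17.1% of the FPKM total.

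Genes were tested with limma 3.58.1 (trended empirical Bayes, R 4.3.3) on log2(FPKM + 1), with the libraries of the 2 groups compared, a filter on a mean of at least 1 FPKM and Benjamini-Hochberg adjustment over 10780 genes. Members were also tested with an exact permutation test. On simulated data with 200 genes changed by 1.5 log2 units, 83.5%, 92% and 87% were recovered in the m/m, Cd4-Cre and direct comparisons. Alternatives were the pseudocount, the filter, 3 scalings, a joint fit, a replicate block, library weights, robust fitting and leaving out each library. The members and lists were chosen with earlier results of these data known. Named genes were all members, up to 6 called genes of each list in each comparison by size of change, and the 3 genes most correlated with each member called against wild-type. Marker genes and Rag1 were named after their values were seen. Promoter sequences are from RefSeq (GRCm38.p6), gene positions from GENCODE vM1, and 1 listed gene was matched by an older symbol.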

Additional observations from a re-analysis of the deposited data

Results flagged for a closer look

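Cd8b1 in Bcl11b fl/fl:Cd4-Cre replicate 2, at 1466 FPKM, stood apart from the other 3 libraries of its group, which lay at 1039 to 1072 FPKM. It was the only such library among 20 groups of member values examined (10 members in wild-type and in Bcl11b fl/fl:Cd4-Cre), and chance gives about 1 in 20. The cause was not tested.

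The effects of the 2 mutants on Runx1 differed in the direct test, with a log2 difference of 0.58 between Bcl11b m/m and Bcl11b fl/fl:Cd4-Cre (limma adjusted p = 0.0193). The 3 Bcl11b m/m libraries were higher than each of the 4 Cd4-Cre libraries.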

How the results depend on the processing

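Runx3 kept its direction and call against wild-type in both mutants under every alternative, except that a replicate block ended the call in Bcl11b m/m (1.73, limma adjusted p = 0.117). Members called in Bcl11b m/m numbered 3, and 5 after median-ratio scaling, 5 after quantile normalization, 4 without short RNA features, 7 with library weights, 2 with no filter and 2 to 4 when a library was left out. Library weights added Runx1, Cbfb, Cd8a and Gata3 in Bcl11b m/m, Cd8a and Cd8b1 in Bcl11b fl/fl:Cd4-Cre, and Cd4 and Gata3 directly. In Bcl11b fl/fl:Cd4-Cre they numbered 2, 4 with library weights and 1 to 4 when a library was left out. In the direct comparison they numbered 1, 0 after quantile normalization and 0 without short RNA features, 3 with library weights and 0 to 3 when a library was left out. Genes called numbered 1866 in Bcl11b m/m (1189 with a filter at 5 FPKM, 3604 with weights, 1021 to 2349 when a library was left out), 1564 in Bcl11b fl/fl:Cd4-Cre (3176 with weights, 700 to 2678 when a library was left out) and 1102 directly (656 with the filter at 5 FPKM, 2173 with weights, 313 to 1121 when a library was left out). Genes called in Bcl11b m/m also rose to 2400 after median-ratio scaling and to 2475 after quantile normalization. The larger member counts at these settings and with weights are thus not read as a result about the members. The replicate numbers did not pair the libraries (correlations of deviations -0.211 to 0.152), and with the block the counts of genes were 283, 456 and 30 and those of members 0, 1 and 0. The share of called genes that were higher was 57.3% in Bcl11b m/m, 45.3% with weights, 49.2% after quantile normalization, 48.2% without wild-type replicate 1 and 72.8% with the block. It moved from 32.03% to 46.4% (median-ratio scaling) and 52.8% (without short RNA features) in Bcl11b fl/fl:Cd4-Cre, and from 74.6% to 51.6% (median-ratio) and 53.4% (quantile) directly. The median of all genes moved from -0.09 to 0.04 without short RNA features in Bcl11b fl/fl:Cd4-Cre, and from 0.09 to -0.01 after median-ratio scaling directly. Signs turned for values that passed no threshold. In Bcl11b m/m these were Myb after quantile normalization (0.073) and Patz1 without Bcl11b m/m replicate 3 (0.080, range -0.31 to 0.080 over left-out libraries). In Bcl11b fl/fl:Cd4-Cre they were Runx1 without short RNA features (0.0056), Gata3 with weights (-0.00054) and without wild-type replicate 1 (-0.073) or 2 (-0.087) or Cd4-Cre replicate 3 (-0.15, range -0.15 to 0.089), and Patz1 without wild-type replicate 2 (-0.018) or Cd4-Cre replicate 1 (-0.020) or 2 (-0.049, range -0.049 to 0.12). Directly they were Cd8a after median-ratio scaling (-0.034) and Patz1 without Bcl11b m/m replicate 3 (0.058, range -0.33 to 0.058). The causes were not tested. Runx2 rests on the fewest fragments.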
